A study of Homo sapiens with 4 samples.

Results

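Chromosome 3 carried 11665 of the 166628 peaks listed for replicate 1 and 6544 of the 93618 listed for replicate 2, or 18209 of 260246 in both lists. The members were chosen by measured values, namely the authors' peak calls, as all peaks placed on this chromosome in a ChIP-seq experiment with an HA antibody (Abcam) on MDA-MB-231 cells, a cultured line from a triple-negative breast tumour. The samples are 2 ChIP libraries labelled PD-L1, described as independent biological replicates, and 2 inputs. All 4 carry the genotype label wild type, came from a subclone of the line and were left untreated. No source used here says how an HA tag was brought into the cells or how the inputs entered peak calling. No mock precipitation was analysed here, so recovery of chromatin without the target cannot be told apart from binding. The lists form a single group with no second condition, and the stretch around 48 to 53 Mb and several gene lists were chosen with earlier results known, so no test was run and all values below are descriptions.

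Chromosome 3 is a large autosome with arms of similar length and a moderate gene content. Its short arm holds a gene-dense stretch known for tumour suppressor genes that carcinomas often lose, among them RASSF1, BAP1 and PBRM1. The distal long arm holds genes that are often gained in carcinomas, such as SOX2, TP63 and PIK3CA. PD-L1, the product of CD274 on another chromosome, is a membrane protein that restrains T cells. Its protein partner CMTM6, which protects it from degradation, is encoded on the short arm of chromosome 3.

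The sequences below are RefSeq promoters (build GRCh38.p14, equal in coordinates to hg38), each running from 250 bases before to 50 after a gene start. They are shown 5′ to 3′ on the strand of the gene, with each GGGCGG or its reverse complement CCGCCC, the GC box, in capitals. The first 3 belong to the best-ranked regions at gene ends that were shared by both replicates, with ranks defined below. They are IRAK2 (an adaptor kinase of interleukin and Toll-like receptors, chr3:10164669-10164968, plus strand), RNF168 (a ubiquitin ligase of the DNA damage response, chr3:196503719-196504018, minus strand) and SOX2 (a stem cell transcription factor, chr3:181711675-181711974, plus strand). CMTM6 (chr3:32502803-32503102, minus strand) is shown for its tie to PD-L1, and FBXO40 (an F-box protein of muscle, chr3:121593129-121593428, plus strand) as a promoter of low GC content that was met by a shared region.
IRAK2: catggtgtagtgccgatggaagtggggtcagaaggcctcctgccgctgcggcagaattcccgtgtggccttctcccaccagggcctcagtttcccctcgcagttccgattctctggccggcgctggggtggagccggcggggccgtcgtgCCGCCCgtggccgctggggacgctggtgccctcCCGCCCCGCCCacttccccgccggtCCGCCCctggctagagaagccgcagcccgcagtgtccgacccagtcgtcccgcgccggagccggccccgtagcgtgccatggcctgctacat
RNF168: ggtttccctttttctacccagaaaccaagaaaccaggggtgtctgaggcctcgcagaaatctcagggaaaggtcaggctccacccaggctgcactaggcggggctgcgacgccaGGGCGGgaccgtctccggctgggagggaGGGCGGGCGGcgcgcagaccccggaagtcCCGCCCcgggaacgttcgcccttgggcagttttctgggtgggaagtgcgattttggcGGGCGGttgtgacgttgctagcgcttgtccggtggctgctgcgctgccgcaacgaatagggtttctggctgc
SOX2: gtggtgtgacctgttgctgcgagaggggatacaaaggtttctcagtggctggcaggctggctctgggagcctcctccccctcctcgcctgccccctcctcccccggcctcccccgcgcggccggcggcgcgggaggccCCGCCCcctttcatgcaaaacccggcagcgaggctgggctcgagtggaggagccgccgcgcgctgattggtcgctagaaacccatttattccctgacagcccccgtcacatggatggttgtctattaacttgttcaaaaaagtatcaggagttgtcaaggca
CMTM6: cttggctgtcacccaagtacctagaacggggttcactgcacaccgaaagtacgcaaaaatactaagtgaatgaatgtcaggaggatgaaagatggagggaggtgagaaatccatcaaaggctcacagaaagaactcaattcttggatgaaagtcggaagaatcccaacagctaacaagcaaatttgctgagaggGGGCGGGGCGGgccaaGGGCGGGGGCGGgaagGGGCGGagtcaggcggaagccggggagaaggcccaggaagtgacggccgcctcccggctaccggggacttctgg
FBXO40: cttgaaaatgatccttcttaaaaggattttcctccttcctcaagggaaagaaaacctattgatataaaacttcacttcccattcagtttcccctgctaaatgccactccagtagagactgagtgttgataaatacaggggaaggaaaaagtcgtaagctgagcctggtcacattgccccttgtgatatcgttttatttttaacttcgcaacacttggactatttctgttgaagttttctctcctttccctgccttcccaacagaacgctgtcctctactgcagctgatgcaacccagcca
Shared regions covered all 300 bases of the IRAK2, CMTM6 and FBXO40 promoters, 257 bases of the RNF168 promoter and the 101 upstream bases of the SOX2 promoter. The GC content was 72.0% at IRAK2, 65% at RNF168, 63.3% at SOX2, 56.3% at CMTM6 and 42.7% at FBXO40, which had no GC box and held TATAAA, a motif that 9.64% of all promoters in the table hold on either strand.

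The peak density of chromosome 3 was 59.5 per Mb by replicate 1 and 33.4 per Mb by replicate 2. It held 5.44 protein-coding genes per Mb, and the 4 autosomes nearest to it in this measure were chromosomes 10, 2, 5 and 8 (5.03 to 5.63). Their densities ran from 30.4 to 90.99 peaks per Mb in replicate 1 and from 19.6 to 50.4 in replicate 2. Chromosome 3 lay above 2, 5 and 8 and below 10 in both lists, at 1.15 and 1.18 times their median in replicates 1 and 2. Among all 23 chromosomes compared (1 to 22 and X) it ranked 12 and 11 by peak density and 17 by coding genes per Mb. Peaks covered 10.7 Mb (5.44%) of chromosome 3 in replicate 1 and 4.97 Mb (2.54%) in replicate 2. The depth of the libraries is unknown.

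**Figure D1:**
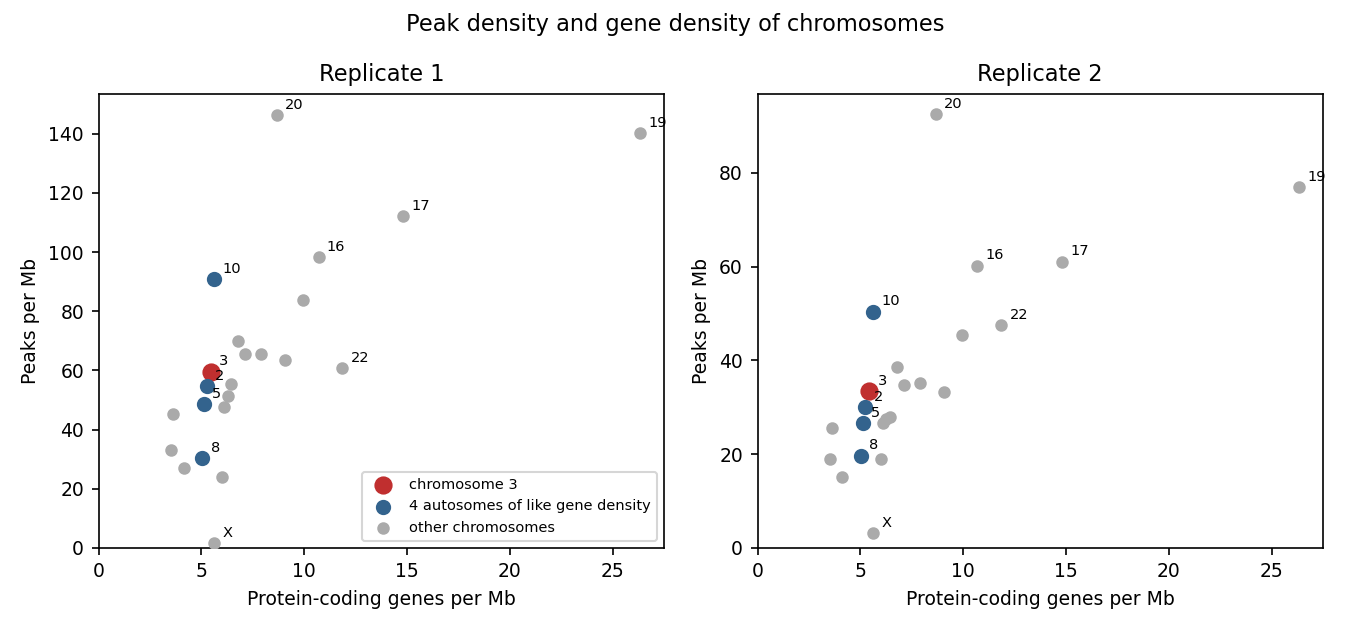
Peaks per Mb (vertical axis) against protein-coding genes per Mb (horizontal axis) for chromosomes 1 to 22 and X, replicate 1 on the left and replicate 2 on the right; each point is 1 chromosome. Chromosome 3 (red) lies at 59.5 and 33.4 peaks per Mb, above chromosomes 2, 5 and 8 and below chromosome 10, which have a like gene density (blue).

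Enrichment was shallow on chromosome 3 in both lists. The authors' fold enrichment over the caller's background was 3.04 at the median of replicate 1 and lay between 2.59 and 3.66 for the middle 90% of peaks. Replicate 2 had a median of 2.19 and a middle 90% between 1.91 and 2.80. The median −log10 q was 1.92 in replicate 1 and 1.83 in replicate 2, with highest values of 5.36 and 11.6. Peaks had a median width of 595 bp in replicate 1 and 631 bp in replicate 2. At a fixed −log10 p of 3.9 to 4.1, the fold of a peak falls as the background set by the caller rises. In that band the median fold on chromosome 3 was 3.06 in replicate 1 (3.10 to 3.24 on the 4 like chromosomes) and 2.12 in replicate 2 (2.13 to 2.45). It was thus below all 4 in both lists, and its part in the density was not tested.

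Along the chromosome, peaks were crowded into a limited number of stretches that were nearly the same in both replicates. In 199 bins of 1 Mb the count per bin had a median of 38 and a maximum of 222 in replicate 1, and a median of 21 and a maximum of 160 in replicate 2. The 20 fullest bins of each list held 30.4% of the peaks of replicate 1 and 33.2% of those of replicate 2. The counts of the lists over these bins were related with rho 0.958 (Spearman) and r 0.957 (Pearson). The same rho was 0.972 on chromosome 10, 0.948 on 2, 0.961 on 5 and 0.916 on 8. Bins share the library and the neighbourhood with each other and are not replicates, so no p is given. Counts per bin also followed the number of coding genes per bin, with rho 0.656 in replicate 1 and 0.619 in replicate 2.

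The bins with the most peaks lay between 10 and 15 Mb on the short arm. The bin from 13 to 14 Mb held 218 and 160 peaks in replicates 1 and 2. It contains IQSEC1 (an exchange factor of ARF GTPases), NUP210 (a nuclear pore protein), HDAC11 (a histone deacetylase), FBLN2 (an extracellular matrix fibulin) and WNT7A (a WNT ligand). The bin from 14 to 15 Mb held 217 and 146 peaks, with XPC (DNA damage recognition), CHCHD4 (protein import into mitochondria) and SLC6A6 (the taurine transporter) among its 10 genes. The bin from 10 to 11 Mb held 222 and 128 peaks, with VHL (a ubiquitin ligase subunit that controls hypoxia-inducible factors), FANCD2 (DNA crosslink repair), IRAK2 and ATP2B2 (a calcium pump of the plasma membrane). Among single genes, IQSEC1 held 89 peaks in replicate 1 and 71 in replicate 2, and 52 shared regions. ATP2B2 followed with 107 and 67 peaks and 49 shared regions. The transcription factor gene FOXP1, farther along the arm, had 88 and 56 peaks and 32 shared regions.

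Dense bins, those at or above the upper quartile of chromosome 3 in both lists, numbered 47, with 36 on the short arm and 11 on the long arm. They held 46.4% of the coding genes, 57.4% of the peaks of replicate 1 and 58.9% of those of replicate 2. The longest runs of such bins were from 42 to 56 Mb (1992 and 1308 peaks, 227 coding genes) and from 8 to 17 Mb (1479 and 872 peaks, 82 genes). On the long arm the longest run was from 126 to 130 Mb, with 685 and 331 peaks and 46 genes. Sparse bins, at or below the lower quartile in both lists, numbered 40, of which 31 were on the long arm and 15 had no coding gene. They held 2.96% of the peaks of replicate 1 and 3.06% of those of replicate 2.

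**Figure D2:**
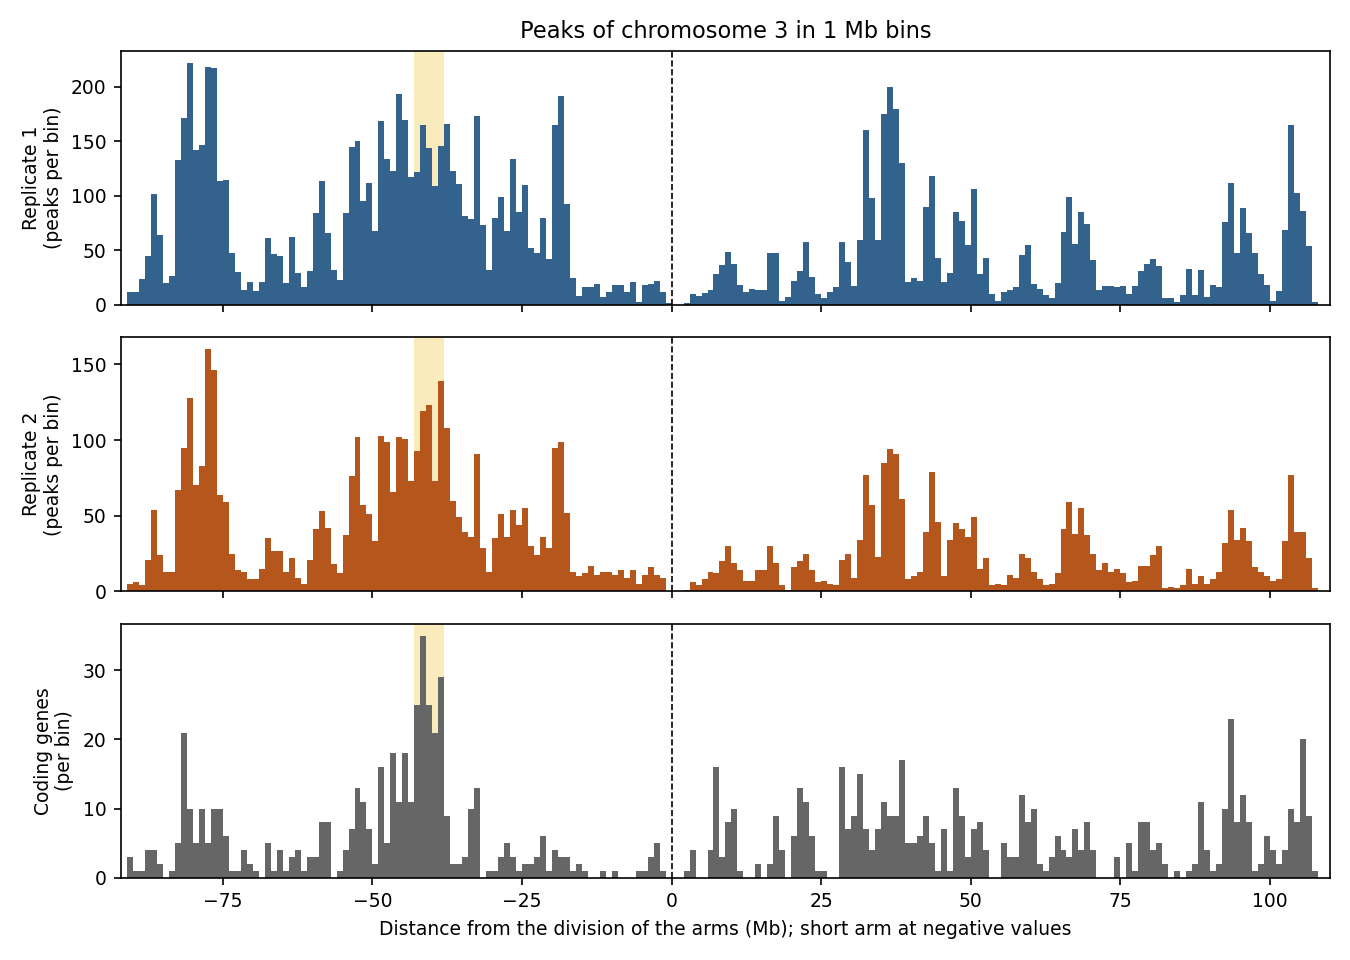
Number of peaks in replicate 1 (top) and replicate 2 (middle) and of protein-coding genes (bottom) in each 1 Mb bin of chromosome 3, against distance from the division of the arms (dashed line); the shaded band is the stretch from 48 to 53 Mb. Both lists are high in the same stretches of the short arm, with maxima of 222 and 160 peaks per bin, and low on either side of the division.

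The short arm carried more peaks than the long arm, although the arms had nearly the same gene density. The arms were divided at 91 Mb, within the longest peak-free stretch of both lists (chr3:90136443-93973342). The short arm held 7143 peaks in replicate 1 and 4121 in replicate 2, and the long arm 4522 and 2423. Per Mb, that was 78.5 on the short arm and 43.1 on the long arm in replicate 1, a ratio of 1.82, and 45.3 and 23.1 in replicate 2, a ratio of 1.96. There were 5.51 coding genes per Mb on the short arm and 5.39 on the long arm. Peaks per coding gene were therefore 14.3 and 8.00 on the short and long arms in replicate 1, and 8.23 and 4.29 in replicate 2. Without the stretch from 48 to 53 Mb the density ratios were 1.74 and 1.80.

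The arms also differed in the width of peaks and in sharing. Median peak width was 642 bp on the short arm and 537 bp on the long arm in replicate 1, and 668 and 585 bp in replicate 2. Covered sequence, which depends on both the number and the width of peaks, was 8.14% of the short arm and 3.11% of the long arm in replicate 1. In replicate 2 it was 3.66% and 1.56%. Of the peaks of replicate 1, 35.5% on the short arm and 22.8% on the long arm overlapped a peak of replicate 2 by at least 1 bp. Of those of replicate 2, 64.6% and 42.6% on the short and long arms overlapped replicate 1. In the band of fixed p, the median fold was 2.98 on the short arm and 3.19 on the long arm in replicate 1, and 2.05 and 2.29 in replicate 2. Over bins, the count and this fold had a Spearman's rho of -0.04 in replicate 1 (171 bins) and -0.53 in replicate 2 (161 bins), and the dense run from 126 to 130 Mb had a fold of 3.23 in replicate 1. The part of the fold in the arm difference was not tested.

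Chromosome 2 was the like chromosome with an arm contrast of similar size. Its short arm had 2.05 times the density of its long arm in replicate 1 and 1.85 times in replicate 2, at a gene density ratio of 0.979. The ratios were 1.16 and 1.24 on chromosome 5, 0.823 and 0.749 on chromosome 10, and 0.839 and 1.11 on chromosome 8. A higher density on the short arm was thus not particular to chromosome 3.

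The stretch from 48 to 53 Mb was the gene-richest 5 Mb of chromosome 3, with 135 coding genes centred in it, and it held its widest regions. Its density was 137 peaks per Mb by replicate 1 and 109.4 by replicate 2, against 57.5 and 31.4 on the rest of the chromosome, ratios of 2.39 and 3.48. Peaks covered 29.2% of the stretch in replicate 1 and 10.95% in replicate 2, against 4.82% and 2.32% of the rest. Its peaks had a median width of 1188 bp in replicate 1 and 800 bp in replicate 2, against 577 and 619 bp elsewhere. Per coding gene there were fewer peaks in the stretch than elsewhere, 5.08 against 11.8 in replicate 1 and 4.05 against 6.44 in replicate 2. Its bins were not the fullest by peak number, since they ranked from 14 to 40 in replicate 1 and from 3 to 26 in replicate 2.

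A shared region is the union of overlapping peaks that holds at least 1 peak of each replicate. A base, gene end or promoter met by it need not lie in a peak of both lists. Chromosome 3 had 3408 such regions with a median width of 1298 bp, of which 181 were 5 kb or wider and 27 were 10 kb or wider. The stretch from 48 to 53 Mb held 78 of the 181 and 17 of the 27 in 2.55% of the length. The 5 widest were all there. The widest, 28783 bp at chr3:48572940-48601722, ran over COL7A1, the collagen of anchoring fibrils in skin, and UQCRC1, a core subunit of respiratory complex III. It joined 1 peak of replicate 1 (fold 3.20) with 9 peaks of replicate 2 (fold up to 2.01). The next, 25932 bp at chr3:52509205-52535136, ran over STAB1, a scavenger receptor of endothelium and macrophages, and NT5DC2, with 1 and 4 peaks. Regions over POC1A, a centriole protein (23928 bp, chr3:52073618-52097545), DUSP7, a MAP kinase phosphatase (17014 bp, chr3:52049401-52066414), and SLC26A6 with CELSR3, an anion exchanger and an adhesion receptor (16667 bp, chr3:48630231-48646897), completed the 5.

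The width of these regions came largely from replicate 1, although some of them joined several of its peaks through peaks of replicate 2. On chromosome 3, 158 peaks of replicate 1 and 4 of replicate 2 were 5 kb or wider. The widest single peak measured 28783 bp in the list of replicate 1 and 6510 bp in that of replicate 2. Of the 181 wide shared regions, 139 held a single peak of replicate 1 and 125 held 2 or more of replicate 2. Their median fold was 3.25 in replicate 1 and 2.06 in replicate 2, against 3.08 and 2.13 over all shared regions of the chromosome.

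**Figure D3:**
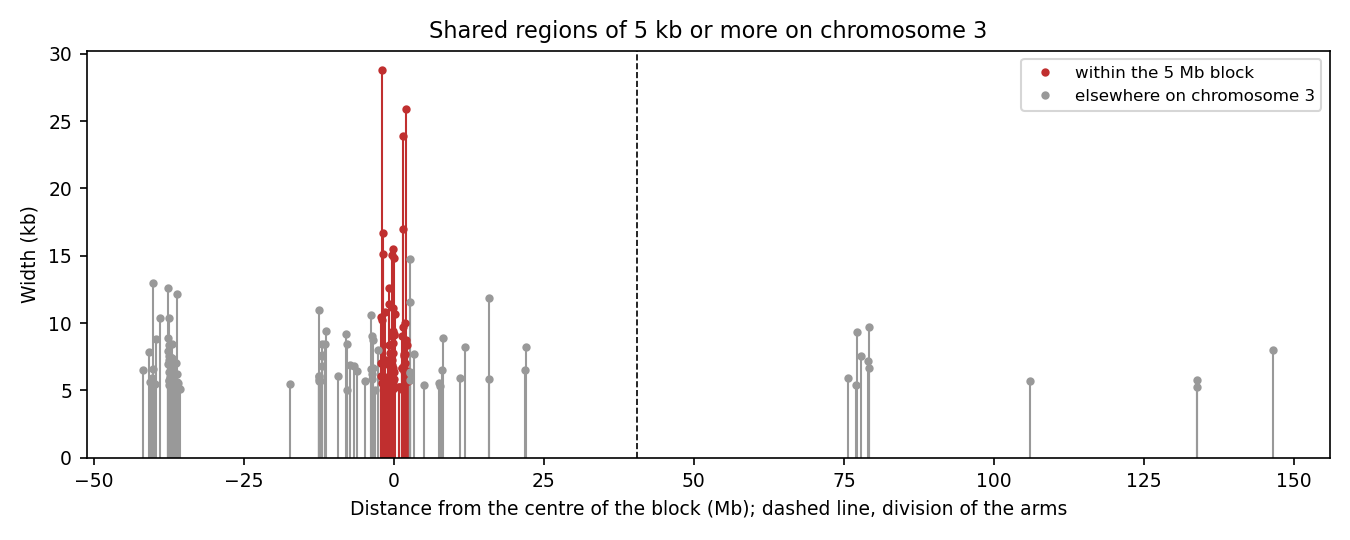
Width in kb of each of the 181 shared regions of 5 kb or more on chromosome 3, against distance from the centre of the stretch from 48 to 53 Mb; each stem is 1 region. The 78 regions within the stretch are red and reach 28783 bp; 11 of the 181 lie on the long arm, right of the dashed line.

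Compared with the gene-richest 5 Mb of each like chromosome, the stretch on chromosome 3 held more wide regions and more covered sequence. Those windows held 25 regions of 5 kb or more on chromosome 10 (77 coding genes), 14 on chromosome 2 (78 genes), 2 on chromosome 5 (124 genes) and 4 on chromosome 8 (104 genes). Covered sequence in replicate 1 ran from 8.90% to 19.6% in them, against which the 29.2% on chromosome 3 was higher. Peaks per Mb in replicate 1 were 177 in the window of chromosome 8 and 147 in that of chromosome 10, both above the 137 on chromosome 3. In replicate 2 the 109.4 peaks per Mb on chromosome 3 were above the 52.6 to 81.0 of all 4 windows. Over whole chromosomes, the 181 wide regions of chromosome 3 were 5.31% of its shared regions, against 3.87% on chromosome 10, 1.84% on 2, 0.961% on 5 and 0.612% on 8. Chromosomes 20, 16 and 11, which are richer in genes, held more in number, and these and chromosome 17 a larger share. In 5 Mb windows chosen for the most wide regions, the like chromosomes held at most 31 (chromosome 10, 69 to 74 Mb). Chromosome 16 held 113 (85 to 90 Mb) and chromosome 20 held 105 (59 to 64 Mb), both above the 78 on chromosome 3.

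Peaks of chromosome 3 lay inside genes more often than those of the like chromosomes. By their centres, 53.6% of the peaks of replicate 1 and 54.7% of those of replicate 2 were inside protein-coding genes and more than 1 kb from their ends, against 45.7% to 49.7% and 45.02% to 50.7% on the other 4. A further 7.29% in replicate 1 and 6.13% in replicate 2 were within 1 kb of either end of a coding gene, against 5.46% to 8.05% and 4.34% to 4.94%. Outside all annotated genes lay 26.8% and 27.4%, against 30.9% to 33.9% and 33.4% to 36.4%. The share of each chromosome's sequence inside genes was not computed. These differences can therefore not be read as a preference of the peaks.

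Of 1066 protein-coding genes of chromosome 3, 440 (41.3%) had a shared region at an end, that is within 1 kb of the start or the far end, against 32.9% of all coding genes of the chromosomes compared. An end peak of replicate 1 was found at 834 (78.2%), against 68.8% of all coding genes, and one of replicate 2 at 473 (44.4%), against 37.1%. Gene bodies held a shared region in 640 genes (60.04%), against 48.9% of all, with values of 88.8% against 77.1% for replicate 1 and 70.7% against 60.4% for replicate 2. On the like chromosomes the share of genes with a shared region at an end was 43.7% on 10, 29.7% on 2, 27.1% on 5 and 15.1% on 8. On chromosome 3 it was 61.5% on the short arm (308 of 501) and 23.4% on the long arm (132 of 565). In replicate 1 alone, 91.2% of short-arm genes and 66.7% of long-arm genes had a peak at an end, and in replicate 2 alone 60.1% and 30.4%. With a reciprocal overlap of 50% the shares were 19.6% on the short arm and 7.43% on the long arm, and with a −log10 q of at least 2 they were 21.4% and 3.54%. Among all 1066 genes, 347 had an end peak in replicate 1 alone, 33 in replicate 2 alone, and 18.6% of the genes had none in either list.

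Gene starts were met more often than far ends. The strand was known for 934 of the genes. Of these, 309 (33.1%) had a shared region at the start, against 24.7% of all genes with a known strand, and 202 (21.6%) had one at the far end, against 17.6%. Both ends had one in 117 genes. Replicate 1 had a peak at 73.9% of starts (65.8% of all) and 38.5% of far ends (36.5% of all). Replicate 2 had one at 35.01% of starts (26.5% of all) and 20.7% of far ends (18.7% of all). At the start base itself, 55.5% of starts lay in a peak of replicate 1 and 13.4% in a peak of replicate 2, and 10 kb upstream 14.2% and 5.89% did. On chromosomes 2, 5 and 10 the values at the start were 46.7% and 10.4%, and 10 kb upstream 8.32% and 3.30%. Coverage was thus higher at starts than 10 kb upstream in both lists, and at both places it was higher on chromosome 3 than on the other 3. Shared regions covered 27.5% of starts on chromosome 3, against 18.6% on the other 3. As unions of overlapping peaks they reach beyond the peaks of replicate 2, which covered 13.4% and 10.4%. The 27.5% is thus not coverage by both lists.

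**Figure D4:**
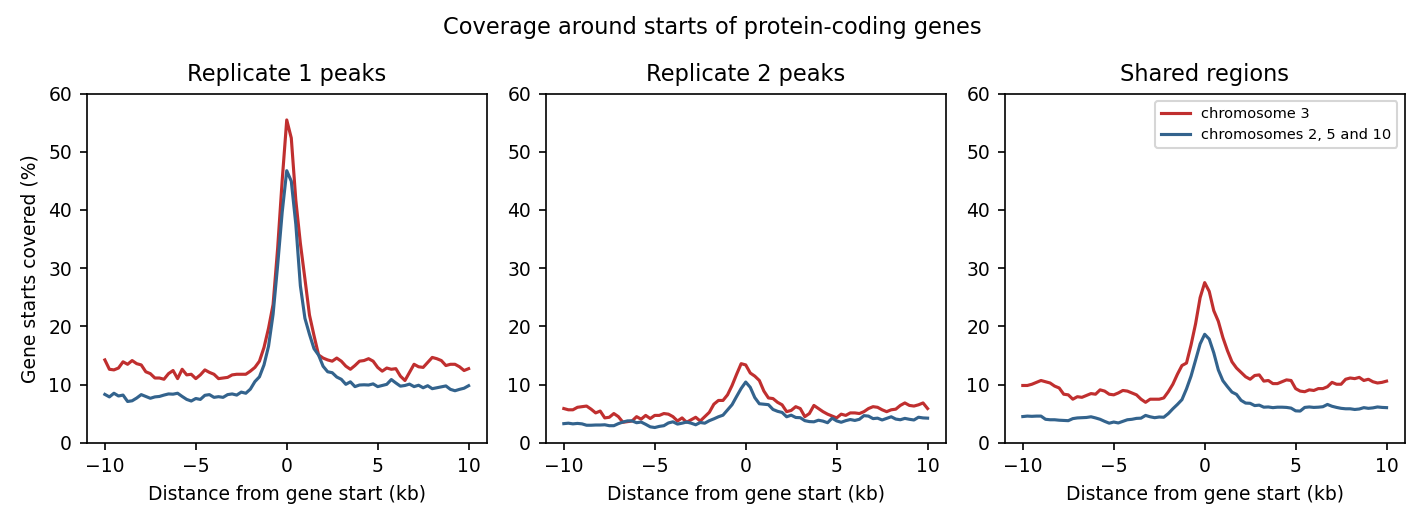
Share of starts of protein-coding genes (%) that lay in a peak of replicate 1 (left), a peak of replicate 2 (middle) or a shared region (right) at each distance from the start in kb, upstream at negative values, for 934 starts of chromosome 3 (red) and those of chromosomes 2, 5 and 10 (blue). The curves are highest at or within 1 sampled step (250 bp) of the start, where they are at 55.5%, 13.4% and 27.5% on chromosome 3.

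Promoters with a peak were richer in GC and CpG than those without, whether or not the peak was shared. Of the 934 RefSeq promoters of chromosome 3, 275 were met by a shared region and had a median GC content of 64.0% and a median of 24 CpG dinucleotides in 300 bases. The 315 with a peak of replicate 1 but no shared region had medians of 65% and 26. The 25 with a peak of replicate 2 but no shared region had 60% and 19. The 319 with no peak in either list had 53% and 11, and all 934 had 63% and 22.5. A GC box was present in 65.1% of the 275, in 66.3% of the 315, in 56% of the 25, in 43.3% of those with no peak, and in 58.5% of all promoters in the table. Replicate 1 met 8.55% of promoters under 45% GC, 77.9% of those of 65 to 75% and 57.9% at 75% and over. Replicate 2 met 3.42% under 45% GC, 27.9% from 55 to 65% and 4.21% at 75% and over. Shared regions met 25.3% in that last class, so many of them reached a promoter there through replicate 1 alone. In each of the 5 classes of GC content, short-arm promoters were met more often than long-arm ones, in both lists. From 55 to 65% GC, for example, shared regions met 55% of 140 short-arm promoters and 23.6% of 140 long-arm ones. The part of base composition in these shares was not tested.

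**Figure D5:**
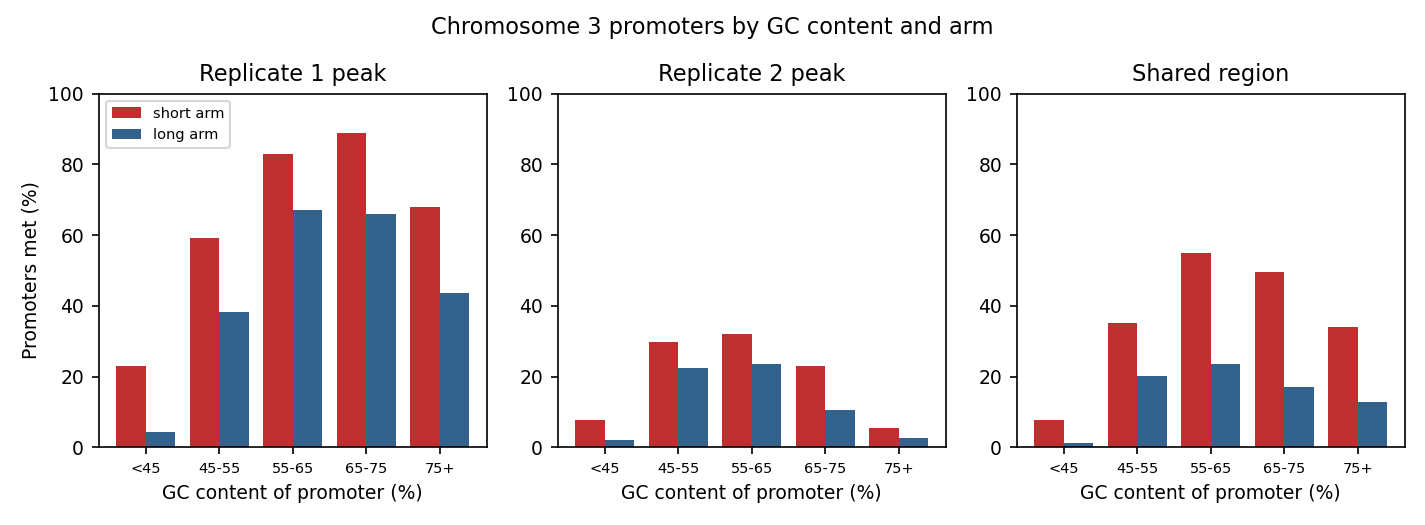
Share of chromosome 3 promoters (%) met by a peak of replicate 1 (left), a peak of replicate 2 (middle) or a shared region (right), in classes of GC content of the 300 bases, for the short arm (red) and the long arm (blue). The red bar is above the blue bar in every class of all 3 panels, and low GC content goes with low shares, 1.10% for shared regions under 45% GC on the long arm.

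Ranked by the mean of the ranks of their highest fold in each replicate, the first 10 shared regions at gene ends of chromosome 3 had folds of 3.45 to 4.17 in replicate 1 and 2.37 to 2.61 in replicate 2. The first lay over the start of IRAK2 (chr3:10164661-10165427), with folds of 4.17 and 2.59. RNF168 followed (chr3:196502916-196503975, 3.66 and 2.61), and then SOX2 (3.56 and 2.56), whose region chr3:181710484-181711775 ended upstream of the annotated start. CACNA1D, a voltage-gated calcium channel (3.52 and 2.54), and ACP3, prostatic acid phosphatase (3.47 and 2.59), came next. The others were at DIPK2A, FBXO40, CFAP20DC, C3orf62 and CAMK2N2, an inhibitor of calmodulin kinase. All 10 regions were under 3 kb wide, and C3orf62 was the one in the stretch from 48 to 53 Mb. None of the 10 best-ranked shared regions of the chromosome as a whole lay at a gene end. The first 2 were inside GRK7, a receptor kinase of the retina (chr3:141788370-141790333, folds of 3.94 and 2.88), and ADGRG7, an adhesion receptor (chr3:100682100-100682745, 3.97 and 2.85). Fold in shared regions of chromosome 3 was weakly related between the replicates (Spearman's rho 0.100 over the 3408 regions).

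A list of 33 tumour suppressor and repair genes of the short arm was chosen with earlier results known. Of these, 23 (69.7%) had a shared region at an end, against 61.5% of all short-arm genes. An end peak was found at 28 in replicate 1 and 23 in replicate 2, against 91.2% and 60.1% of short-arm genes. Many of the 33 lie between 48 and 53 Mb, where 85.8% of genes had a shared region at an end. The part of this position in the share was not tested. RASSF1, a regulator of RAS signalling and microtubules, shared a region of 7809 bp with ZMYND10, a cilium assembly protein (chr3:50336367-50344175, folds of 3.38 and 1.99). TUSC2 had one at its start (chr3:50326937-50328658, 4.095 and 1.88) and another at its far end (chr3:50319572-50324709, 3.16 and 2.04), and the start of the histone methyltransferase gene SETD2 had another (chr3:47163233-47165081, 3.34 and 2.22). The deubiquitinase gene BAP1 had a region with lower folds (2.91 and 1.84). PBRM1, a subunit of a chromatin remodelling complex, had 3 and 5 peaks in its body and no shared region at an end. VHL had 1 peak in replicate 1 and none in replicate 2, and again no shared region.

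Of the distal long-arm genes often gained in carcinomas, 10 of 25 (40%) had a shared region at an end. This compares with 23.4% of all long-arm genes and 41.3% of the chromosome. An end peak was found at 20 in replicate 1 and 10 in replicate 2, against 66.7% and 30.4% of long-arm genes. Besides SOX2, the genes with a shared region included the kinase gene PRKCI (chr3:170222072-170223290, folds of 3.30 and 2.38), the transcription factor gene ETV5 (3.27 and 2.30), the transferrin receptor gene TFRC (3.23 and 2.195) and BCL6 (2.72 and 2.51). PIK3CA, the catalytic subunit of a lipid kinase, had 1 body peak in replicate 1 and none in replicate 2. TP63, a p53 family factor of basal epithelium, had 6 and 2 body peaks and none at its ends. The median of body peaks per 100 kb was 3.04 and 1.38 in this list, 21.2 and 11.8 in the short-arm list, and 9.07 and 3.36 over all coding genes of the chromosome, in replicates 1 and 2.

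Of 11 genes tied to PD-L1 and to T-cell recognition, 3 had a shared region at an end. CMTM6 and its relatives CMTM7 and CMTM8, which lie together on the short arm, each had a shared region at the start, as did 49.2% of short-arm genes. The CMTM6 region (chr3:32502107-32503991) had folds of 3.19 and 2.29, with 2 and 1 peaks in the gene body. The best-ranked CMTM7 region, at the far end of that gene, had folds of 3.30 and 2.12, and the CMTM8 region 3.07 and 1.89. None of the 8 long-arm genes CD47, CD96, CD200, BTLA, CD200R1, TIGIT, CD80 and CD86 had a shared region at an end, a place where 23.4% of long-arm genes had one. Among them, CD80, CD86 and CD47 each had an end peak in replicate 1 and none in replicate 2, TIGIT had one in replicate 2 and none in replicate 1, and BTLA had no peak in its body in either list.

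Chemokine receptor genes, which guide leukocyte traffic and lie on the short arm, had shared regions at an end in 5 of 12 cases (41.7%), against 61.5% of short-arm genes. CCR9 (folds of 3.16 and 2.08), CCR1 (3.29 and 1.98), CXCR6 (3.06 and 1.79), CCR2 (3.09 and 1.99) and XCR1 (2.84 and 1.99) had one, while CCR8 had no peak in either list. Of 9 ribosomal protein genes, 8 had an end peak in replicate 1 (78.2% of the chromosome's genes did) and 2 in replicate 2 (44.4%), and 3 had a shared region (41.3%), RPL29, RPL32 and RPL39L. All 9 had a body peak in replicate 1 (88.8% of the chromosome's genes did) and 1 had one in replicate 2 (70.7%). The 10 olfactory receptor genes of the chromosome had no peak in body or end windows in either list. On the long arm, where they lie, 23.4% of genes had a shared region at an end. End peaks were found there at 66.7% in replicate 1 and 30.4% in replicate 2. The Wilson 95% bound for the 10 allows a share of up to 27.8%. It takes genes as independent, whereas these lie together between 98 and 99 Mb.

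In the stretch from 48 to 53 Mb, 134 coding genes lie wholly inside. Of these, 115 (85.8%) had a shared region at an end, against 61.5% of short-arm genes, which include them. An end peak was found at 131 (97.8%) in replicate 1 and 104 (77.6%) in replicate 2, against 91.2% and 60.1% of short-arm genes. The 115 exceed the 104, so some shared regions reached an end through a peak of replicate 1 alone. In the stretch, 69 peaks of replicate 1 and 1 of replicate 2 were 5 kb or wider. With reciprocal overlap of 50%, 29 genes (21.6%) had a shared region at an end, against 19.6% of short-arm genes. With the stricter threshold on −log10 q, 2 or more, 47 (35.1%) had one, against 21.4%. CACNA2D2, a calcium channel subunit, held the most shared regions, 17 in 142 kb. DNAH1, an axonemal dynein heavy chain, held 13 in 89.6 kb, and BSN, a scaffold of the presynaptic active zone, 11 in 119 kb. The best-ranked gene ends after C3orf62 were those of MST1R, the receptor kinase for macrophage-stimulating protein (chr3:49879934-49887692, folds of 3.37 and 2.39), and CDHR4 (3.66 and 2.24). The 19 genes without one included the RNA-binding genes RBM5 and RBM6, CDC25A, a cell cycle phosphatase, GPX1, glutathione peroxidase, and the neighbours PBRM1, GNL3, GLT8D1, SPCS1 and NEK4, which lie side by side.

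MicroRNA genes of chromosome 3 numbered 80 in the RefSeq table, and shared regions met 18 of the hairpins, of which 10 lay between 48 and 53 Mb. Peaks of replicate 1 met 28 of the 80 and peaks of replicate 2 met 8, so that some of the 18 lie in parts of a shared region that a single list covers. No such share is given here for other chromosomes or for all hairpins of the stretch. The counts can therefore not be read as high or low. The mature forms of 4 of the 18 that are widely studied are shown with the seed, bases 2 to 8, in capitals. They lie inside the coding genes DALRD3 and NDUFAF3 (MIR191), CTDSPL (MIR26A1), ARPP21 (MIR128-2) and GLYCTK (MIR135A1).
hsa-miR-191-5p: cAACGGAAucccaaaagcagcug
hsa-miR-26a-5p: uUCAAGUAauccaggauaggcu
hsa-miR-128-3p: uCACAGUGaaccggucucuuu
hsa-miR-135a-5p: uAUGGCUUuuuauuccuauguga
No seed was shared among these 4. MIR191 lay with MIR425 in 1 region of 10860 bp (chr3:49020075-49030934, folds of 3.05 and 2.09). The region at MIR26A1 was 1169 bp (chr3:37968926-37970094, 2.98 and 1.98), that at MIR128-2 was 913 bp (chr3:35743849-35744761, 2.99 and 2.48), and that at MIR135A1 was 4893 bp (chr3:52289875-52294767, 2.95 and 1.90).

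Sharing between the replicates was higher on chromosome 3 than on 3 of the 4 like chromosomes. Of its peaks, 30.6% of replicate 1 and 56.5% of replicate 2 overlapped the other list, against 31.9% and 58.5% on chromosome 10, 25.9% and 47.1% on 2, 24.8% and 45.5% on 5, and 19.3% and 29.95% on 8. The order was that of peak density on these 5 chromosomes. Within chromosome 3, dense bins had 37.5% and 68.4% shared and sparse bins 13.9% and 24.0%, in replicates 1 and 2. In the stretch from 48 to 53 Mb it was 56.1% and 85.6%, where peaks of the other list covered 10.95% and 29.2% of the sequence. Gene-end peaks were shared in 37.3% of 850 (Wilson 95% interval 34.1% to 40.6%) in replicate 1 and 77.3% of 401 (73.0% to 81.1%) in replicate 2. Peaks outside genes were shared in 27.9% of 3124 (26.3% to 29.5%) and 49.4% of 1793 (47.1% to 51.7%). These intervals cover counting error only. Of the widest 25% of peaks, 53.2% and 76.3% were shared, and of the narrowest 25%, 16.3% and 41.6%.

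The strongest single peaks of chromosome 3 were shared about as often as all peaks in replicate 1 and less often in replicate 2. Among the 100 of highest −log10 q, 31% were shared in replicate 1 (30.6% of all) and 24% in replicate 2 (56.5% of all). Of the 10 peaks with the highest −log10 q, 2 of replicate 1 and 1 of replicate 2 overlapped the other list. In replicate 1 the first lay at an end of SACM1L, a phosphoinositide phosphatase (chr3:45688481-45689778, −log10 q 5.36, fold 4.21), with the nearest peak of replicate 2 at 4031 bp. In replicate 2 the first lay inside TBC1D5, a regulator of retromer traffic (chr3:17401945-17402407, −log10 q 11.6, fold 5.67), with the nearest peak of replicate 1 at 33284 bp. The next 3 of replicate 2 were 228 to 339 bp wide and lay inside FOXP1 (−log10 q 6.08), the axon guidance receptor gene ROBO1 (5.72) and the synaptic adhesion gene CADM2 (5.61). In replicate 2, 33.9% of the 257 peaks at a −log10 q of 3 or more were shared, against 58.6% of the 4304 under 2. In replicate 1 these shares were 27.0% of 285 and 26.6% of 6798, with 36.7% in the class from 2 to 3.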

How the data were processed

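The 2 ChIP libraries each came as a list of broad peaks; the inputs have no list here. The submitters' processing notes name hg38, MACS2 2.1.1 and Bowtie2 2.2.9 without saying what each did, and no source used here gives thresholds. Per the layout of the caller's format, the deposited lists hold a score, a fold enrichment (ratio) and −log10 p-value and −log10 q-value for each peak. These are the authors' values. Peak names of replicate 2 include "Merge", which no source used here explains, so it is unknown whether that list came from 1 library. The libraries are independent biological replicates per the labels.

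Peaks on chromosomes 1 to 22 and X were used (80 and 27 others left out). Density is per Mb from the first to the last RefSeq gene without gene-free stretches of 1 Mb or more (195.9 Mb on chromosome 3). Genes and strands came from RefSeq tables of GRCh38.p14. The start of a gene is that of its RefSeq promoter; on chromosome 8 strands were not used here. Overlap was at least 1 bp. Members and gene lists were chosen with earlier results of these data known. Named are genes at the 10 best-ranked gene-end regions, the 5 widest regions and the 3 fullest bins, and list members; any other gene was named with its values already seen. Alternatives were a −log10 q of at least 2, equal numbers of peaks, merging within 1 kb, reciprocal overlap of 50%, other windows, bins and block edges, and each replicate alone. Python 3.11.15, numpy 2.4.6, pandas 2.3.3 and scipy 1.17.1 were used. Overlap and coverage routines were tested on 3000 simulated peaks and recovered all 6 planted values.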

Additional observations from a re-analysis of the deposited data

How the results depend on the processing

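The arm ratio, the ratio of 48 to 53 Mb to the rest and the ratio to like chromosomes kept their direction under every alternative run. The other results have no direction that could turn. Of 64 alternatives computed, 26 were counted as unchanged and 38 as moved, by a limit set for each kind of result. Alternatives for rho were all counted as moved, whatever their value. For the ratios the limit was the standard deviation of the replicates, so each replicate alone was bound to count as unchanged. With a −log10 q of at least 2, the mean density of the replicates was 18.1 peaks per Mb (46.5 with all peaks), short over long arm was 2.16 (1.89), chromosome 3 over the like chromosomes was 1.31 (1.17), shared peaks were 12.4% and 26.9% in replicates 1 and 2, genes with an end region were 127 (440), shared regions at gene ends were 11.7% (8.98%) and rho over bins was 0.891 (0.958). With equal numbers of peaks these were 2.05 for the arms, 1.21 for the like chromosomes, 35.2% and 38.3% shared, 10.6% at gene ends and rho 0.947. Reciprocal overlap gave 10.97% and 19.6% shared, 140 genes and 7.34% at gene ends. In covered bases the arm ratio was 2.48 and the ratio of 48 to 53 Mb to the rest 5.39 (2.93 by peak number). Without that stretch the arm ratio was 1.77. With 6 like chromosomes the ratio was 1.24. Windows of 500 bp and 5 kb gave 5.34% and 22.5% of regions at gene ends, and overlap in place of centres 13.8%. Bins of 500 kb, of 2 Mb and moved by 500 kb gave rho 0.936, 0.967 and 0.960. With each replicate alone, genes with an end peak numbered 473 to 834, and 6.13% to 7.29% of peaks lay at gene ends; the arm ratio was 1.82 to 1.96, the block ratio 2.39 to 3.48 and the ratio to like chromosomes 1.15 to 1.18. Genes counted by arm and in 48 to 53 Mb under these settings were chosen after seeing the data. No paired analysis was possible because peak lists were used for the ChIP libraries only and no result comes from a test between groups. Depth is unknown, and most peaks lie near the lower end of the lists, so counts depend on the threshold.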

Other observations

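Very long genes of chromosome 3 differed widely in peak density, with medians below the 9.07 and 3.36 peaks per 100 kb of all its coding genes in replicates 1 and 2. Of its coding genes, 33 were 500 kb or longer, and they had 0.219 to 14.0 peaks per 100 kb in replicate 1 (median 2.89) and 0 to 8.90 in replicate 2 (median 1.44). FOXP1 had the highest values in both lists, 14.0 and 8.90, followed in replicate 1 by CACNA2D3, a calcium channel subunit, with 11.4, and ERC2, a presynaptic scaffold, with 10.0. The lowest were those of NAALADL2, with 3 and 2 peaks over 1370 kb, and the synaptic adhesion gene NLGN1, with 4 and 0 over 898 kb. FHIT, a fragile-site gene, had 66 and 32 peaks over 1504 kb. ROBO2 and ROBO1, which lie side by side on the short arm, had 1.49 and 1.20 peaks per 100 kb in replicate 1 and 1.55 and 1.11 in replicate 2.

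After the stretch around the division of the arms, the longest stretch without a peak in either list was 1010214 bp (chr3:174845735-175855948), which began inside NAALADL2 and ran past its end. It began directly after a shared region that ranked 4 of the 3408 of chromosome 3 by fold (chr3:174845165-174845734, 3.86 and 2.75 in replicates 1 and 2). The next, of 478043 bp, held DPPA2 and DPPA4, genes of the early embryo and germ line (chr3:109207588-109685630).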
